A study of Mus musculus with 2 samples.

Results

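The genes described here are the lysosomal hydrolases with their activators and membrane partners, and the subunits of the V-ATPase, the proton pump that acidifies the lysosome. They were chosen by name: 32 listed lysosomal genes, with cathepsins left out, and every gene whose symbol starts with Atp6v, of which the arrays measured 20. Of these 52 genes 51 were measured and 46 counted as expressed, among 18193 genes measured and 11006 expressed in all. Cd63 was not analysed here.

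The cells were neutrophils grown from bone marrow progenitors of male C57BL/6 mice, either wild-type or mir-223 knockout. The knockout animals lack miR-223, a microRNA abundant in granulocytes. Both cultures received G-CSF, which drives granulocyte production, and stem cell factor for 6 days. Both were also exposed to cycloheximide, a translation blocker, at 100 ug/ml for the last 8 min. RNA of each genotype was hybridised to 1 Affymetrix 3' array, so differences could not be checked in replicates and none was tested. The number of animals behind each culture is not stated in the labels.

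Lysosomes digest macromolecules with acid hydrolases that are made in the endoplasmic reticulum, tagged with mannose 6-phosphate and sorted by receptors for that tag. The V-ATPase keeps the lumen acid. It joins a cytosolic V1 sector, which splits ATP, to a membrane V0 sector, which carries protons. In neutrophils the azurophil granules, which form at the promyelocyte stage, share many hydrolases and membrane proteins with lysosomes.

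The missing microRNA has 2 mature arms in RefSeq (build GRCm38.p6). They are shown because the genotype removes them, with the seed, bases 2 to 8, in capitals. The 3p arm lies at chrX:96242884-96242905 and the 5p arm at chrX:96242842-96242864, both on the + strand. Target sites of these seeds in the members were not searched, since transcript sequences were not used here. The loss of miR-223 itself was not checked on these arrays.
mmu-miR-223-3p: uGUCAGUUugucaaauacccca
mmu-miR-223-5p: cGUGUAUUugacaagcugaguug

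The values are the deposited linear intensities of a gene's brightest probe set. Pairs of intensities are given with the wild-type array first. Differences subtract the wild-type value from the knockout value after log2(intensity + 16), which shrinks the differences of dim genes. A gene counted as expressed when its mean on that scale reached the median of all probe sets, 5.64, or an intensity of 33.9. Within a gene, the differences of its expressed probe sets varied by an SD of 0.144, pooled over 5017 genes. This spread between probe sets is no error between replicates. Having 2 arrays limits how precise each value can be. Levels of different genes were not compared, since probe sets differ in brightness.

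The hydrolases, activators and membrane proteins were mostly a little higher on the knockout array, and the V-ATPase subunits were divided. Of the 31 expressed lysosomal genes 29 were higher, 1 was lower (Naglu) and 1 was equal (Sgsh), where 49.7% of all expressed genes were higher and 50.1% lower. Their median difference was 0.14, beside a median of -0.00037 over all expressed genes. Of the 15 expressed V-ATPase subunits with an Atp6v symbol, 6 were higher and 9 lower. Their median was -0.0039, which turned positive with the mean of probe sets (0.034) and without probe sets of shared suffix (0.052). It was also positive with median centring (0.0076) and with centring on the hybridization controls (0.10), which move every gene by one constant and put the median of all expressed genes at 0.011 and 0.11. In RNA of whole cultures, fewer cells of a type and less RNA per cell cannot be told apart.

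**Figure D1:**
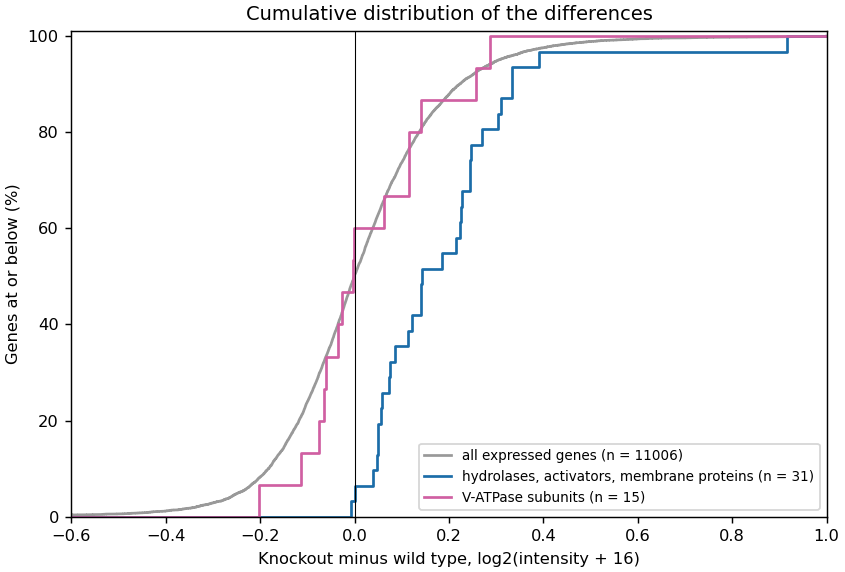
Cumulative share of genes in percent against the difference, knockout minus wild type on log2(intensity + 16), for all 11006 expressed genes (grey), the 31 lysosomal genes (blue) and the 15 V-ATPase subunits (pink). The blue curve lies to the right of the grey one with its median at 0.14, and the pink curve crosses 0 near the grey one, at a median of -0.0039, which turned positive with the mean of probe sets (0.034), without shared suffixes (0.052) and under both constant centrings.

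The differences were small. Of the 31 lysosomal genes 14 were higher by 0.2 or more and 0 were lower by as much, where 12.1% of all expressed genes were higher and 8.27% lower by that size. At 0.5 or more, 1 lysosomal gene was higher (1.13% of all expressed genes) and 0 were lower (0.591%). Beyond the spread between probe sets lay 15 of the 31, all of them higher, where 18.8% of all expressed genes lay above it and 15.5% below. The other 16 lay within it, as did 65.7% of all expressed genes. Among V-ATPase subunits 2 were higher and 1 was lower by 0.2 or more, and 12 of 15 lay within that spread. The summed intensity of the lysosomal genes was 41004 in wild type and 46373 in knockout, a ratio of 1.13. That of the V-ATPase genes was 27391 and 27377, a ratio of 0.999, and over all measured genes the ratio was 1.01.

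Glycosidases, which trim sugars from glycoproteins, glycolipids and glycosaminoglycans, had a median of 0.12, with 8 of 9 higher. Man2b1, the lysosomal alpha-mannosidase, had an intensity of 1872 in wild type and 2362 in knockout, a difference of 0.33. Its second probe set gave 0.37, so both were higher by more than the spread between probe sets. Fuca1, which removes fucose, gave 955 and 1155 (0.27), and its 3 expressed probe sets ranged from 0.16 to 0.29. Hexa, the alpha subunit of beta-hexosaminidase, which degrades GM2 ganglioside, gave 3200.5 and 3738 (0.22).

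The remaining glycosidases lay at or within that spread on their brightest probe set. Manba, the beta-mannosidase, stood at 0.14 and Gusb, the beta-glucuronidase, at 0.12, with intensities of 2095 and 2279. The second probe set of Gusb gave 565 and 722, a difference of 0.35. Glb1, the beta-galactosidase, stood at 0.11 and Gla, the alpha-galactosidase, at 0.09. The value of Gla was -0.027 with the mean of its probe sets, of which 1 was expressed. Neu1, the lysosomal sialidase, gave 688 and 716 (0.06). Naglu, an enzyme of heparan sulfate breakdown, gave 100.4 and 99.7 (-0.01), and turned positive under median centring and centring on hybridization controls.

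Sulfatases, which remove sulfate from glycosaminoglycans and sulfolipids, had a median of 0.07, with 4 of 5 higher and Sgsh equal. Ids, which acts on dermatan and heparan sulfate, gave 254 and 325 (0.33). Its other expressed probe sets gave 0.45 and 0.11, and the mean of all 6 probe sets was 0.16. Arsb, which acts on dermatan sulfate, gave 1235 and 1467 (0.25), and its second expressed probe set gave 0.29. Both genes were higher on each expressed probe set. Arsa, the sulfatase of myelin sulfatide, stood at 0.07 and Galns, of keratan sulfate, at 0.06. Sgsh, the heparan sulfamidase, had an intensity of 87.6 on both arrays, and a second probe set at 0.20.

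Lipid hydrolases were all 4 higher, with a median of 0.18. Galc, which degrades galactosylceramide, gave 334 and 399.6 (0.25). Smpd1, the acid sphingomyelinase, gave 269 and 318 (0.23), with 0.093 on its second probe set. Ppt1, which removes palmitate from proteins, gave 635 and 701 (0.14), and its probe sets ranged from 0.10 to 0.34. Asah1, the acid ceramidase, gave 1892 and 1944 (0.04), well within the spread between probe sets.

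The helpers of lipid breakdown were higher by 0.07 to 0.21. Psap, the precursor of the saposins that present sphingolipids to their enzymes, gave 4657 and 5408 (0.21), with 0.32 on its second probe set. Gm2a, the activator that works with beta-hexosaminidase on GM2 ganglioside, gave 1235 and 1405 (0.18), with 0.38 on its second expressed probe set. Npc2, which carries cholesterol in the lumen, gave 3329 and 3502 (0.07). Its dimmest expressed probe set gave 132 and 184 (0.43), so the size differed several fold between probe sets of this gene while the direction did not.

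All 3 genes of the protease and granulin group were higher by 0.2 or more (12.1% of all expressed genes). Lgmn, the asparaginyl endopeptidase legumain, gave 54.7 and 76.6 (0.39). Lgmn is dim and rests on 1 expressed probe set, and with a pseudocount of 64 it stood at 0.24. Tpp1, a tripeptidyl peptidase, gave 1509 and 1866 (0.30), with 0.47 on its second probe set. Grn, the precursor of the granulins, gave 3919 and 4593 (0.23), and its 3 probe sets ranged from 0.23 to 0.35.

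**Figure D2:**
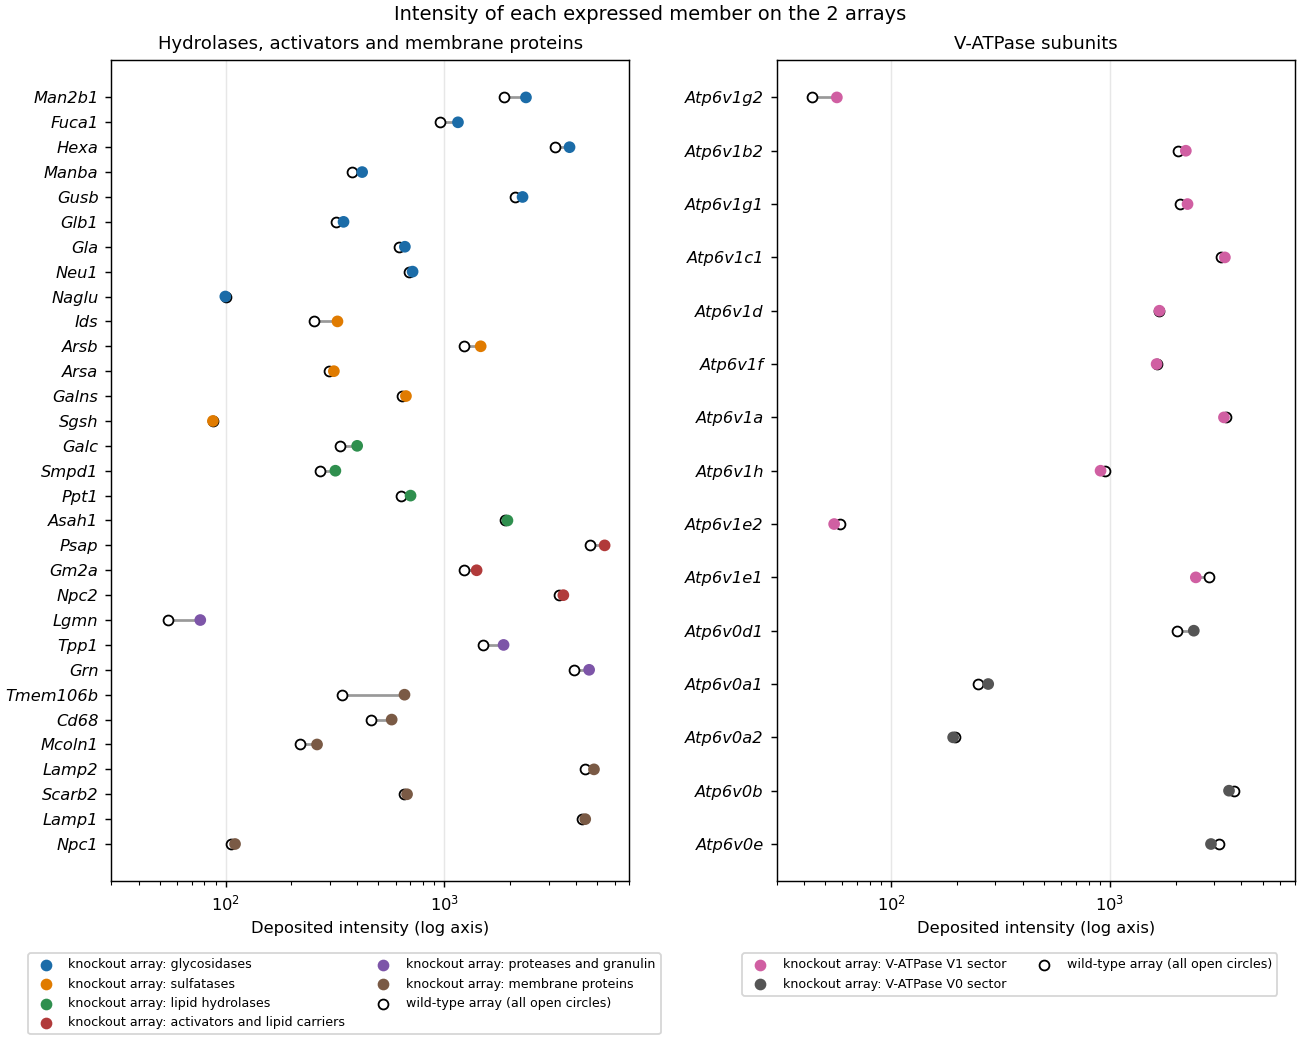
Deposited intensity (log axis) of each expressed gene on the wild-type array (open circles) and the knockout array (filled circles, coloured by role), 1 array per genotype. In the left panel the filled circles lie to the right of the open ones except for Naglu and Sgsh, by small steps apart from Tmem106b (341 and 658), and in the right panel they lie on either side.

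The 7 measured membrane proteins were all higher, with a median of 0.14. Tmem106b, a membrane protein of late endosomes and lysosomes, gave 341 and 658, a difference of 0.92 and a linear ratio of 1.93. It ranked 16 of the 11006 expressed genes from the top and was the only member at 0.5 or more. Its other expressed probe sets gave 309 and 381 (0.29) and 53.1 and 85.3 (0.55), and the mean of all 4 of its probe sets was 0.45. The 3 expressed probe sets were thus all higher, by sizes that differed beyond the spread between probe sets. Without Tmem106b the median of the lysosomal genes was 0.14, as with it.

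Cd68, a sialomucin of macrophage and granulocyte lysosomes, gave 461 and 575 (0.31). Mcoln1, a cation channel that releases calcium from lysosomes, gave 219 and 262 (0.24), with 0.12 on its second expressed probe set. The abundant glycoproteins that coat the inner face of the membrane differed less. Lamp2 gave 4384 and 4833 (0.14), with 4 probe sets from 0.06 to 0.42. Lamp1 gave 4262 and 4409 (0.05). Scarb2, the receptor that carries glucocerebrosidase to lysosomes, stood at 0.05, and Npc1, the membrane partner of Npc2 in cholesterol export, at 0.05.

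In the V1 sector of the V-ATPase 4 of 10 expressed subunits were higher and 6 lower; the median was -0.0024 and turned positive with the mean of probe sets (0.0052), without shared suffixes (0.017) and under the constant centrings. Atp6v1a, the catalytic subunit that binds ATP, gave 3409.6 and 3328 (-0.03), with the same sign on both probe sets. Atp6v1b2, the other subunit of the ATP-splitting hexamer, gave 2055 and 2228 (0.12), with 0.39 and 0.33 on its other expressed probe sets. Atp6v1d, of the central rotor, gave 1688 and 1687, and Atp6v1f, also of the rotor, 1643 and 1638. These rotor subunits thus differed by far less than that spread.

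The peripheral stalks of V1 hold the E and G subunits together with C. Atp6v1e1 gave 2851 and 2475 (-0.20), the lowest value of all members. That value rests on its brightest probe set, of a shared suffix class. The other expressed probe sets gave -0.05 and -0.13. Atp6v1g1 gave 2093 and 2268 (0.11) and Atp6v1c1 3218 and 3361 (0.06). Atp6v1g2, a form known mainly from neurons, was dim at 43.5 and 56.6 (0.29, or 0.17 with a pseudocount of 64). Atp6v1e2, a form known from testis, stood at -0.07 and Atp6v1h, a regulatory subunit, at -0.06.

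In the V0 sector 2 of 5 expressed subunits with an Atp6v symbol were higher and 3 lower. The median was -0.027. With the mean of probe sets 4 were higher and 1 lower (median 0.078), and without shared suffixes the 3 subunits left were all higher (0.14). Centred on the hybridization controls the median was 0.081. Atp6v0d1, which couples the rotor to the proteolipid ring, gave 2025 and 2423 (0.26) on a single expressed probe set. Atp6v0a1, a form of the membrane subunit that passes protons, gave 251 and 278 (0.14), and its 4 probe sets were all higher. Atp6v0a2, another form of it, gave 196 and 192 (-0.03), and its other probe sets gave 0.05 and 0.21. Atp6v0b, of the proteolipid ring, gave 3701 and 3510.0 (-0.08), with 0.15 and 0.03 on its other probe sets. Atp6v0e gave 3144 and 2903 (-0.11) on a single probe set.

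The 5 members below the expression cut were all V-ATPase subunits. They were Atp6v0a4 and Atp6v1b1, forms known from kidney, Atp6v0d2, known from osteoclasts, Atp6v0e2 and Atp6v1c2. Their intensities lay between 9.88 and 19.6 on both arrays, and no difference was read from them.

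The probe sets of a gene gave a further view within the same arrays. Of the 19 lysosomal genes with at least 2 expressed probe sets, 17 had all of them higher, 0 had all lower, and Neu1 and Sgsh were mixed or equal. Over all such genes 30.2% had every expressed probe set higher and 21.7% every one lower. Of 10 V-ATPase subunits 4 had all higher and 3 all lower. Counted singly, 55 of 58 expressed probe sets of lysosomal genes were higher (53.6% of all expressed probe sets), with a median of 0.22, and 20 of 33 for the V-ATPase. The brightest probe set had a smaller difference than the mean of the others in 12 of the 19 lysosomal genes, in 7 of the 10 V-ATPase subunits and in 57.4% of all such genes. For the V-ATPase the median was -0.014 on the brightest probe set and 0.088 on the mean of the others, and for the lysosomal genes 0.23 and 0.28.

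**Figure D3:**
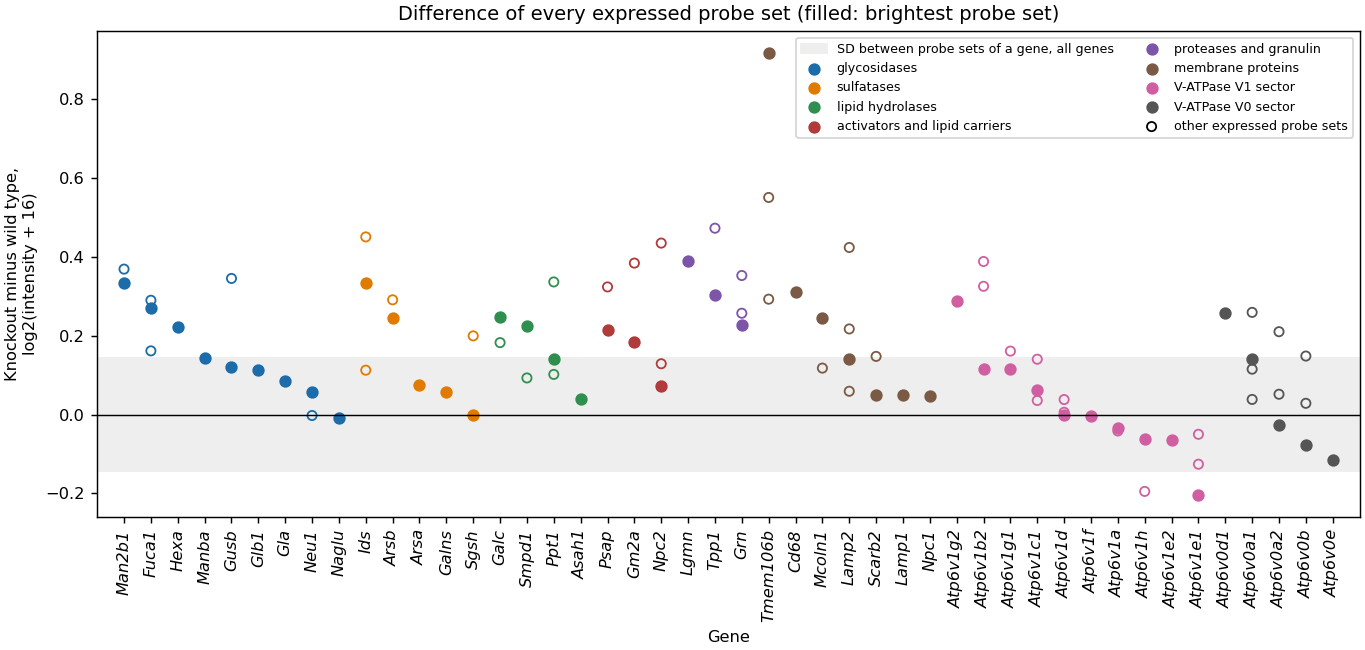
Difference, knockout minus wild type on log2(intensity + 16), of every expressed probe set of each gene, coloured by role, with the brightest probe set filled and the others open. The grey band marks the SD of 0.144 between probe sets of a gene over all genes; 15 of 31 filled lysosomal points lie above the band (18.8% of all expressed genes), and 12 of 15 V-ATPase points lie inside it (65.7%).

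Other genes of the pathway were taken from 5 lists. Their counts stand beside 49.7% of all expressed genes higher and 50.1% lower. Of 24 expressed lysosomal enzymes beyond the members 17 were higher, and the median of the 24 was 0.09. Smpdl3a, a phosphodiesterase related to acid sphingomyelinase, gave 1322 and 1905 (0.52), while the related Smpdl3b gave 143 and 81.8 (-0.70). Each of these rests on a single expressed probe set. Scpep1, a serine carboxypeptidase, stood at 0.46 and Acp5, the tartrate-resistant acid phosphatase, at 0.45. In this list 7 of 24 genes were higher and 2 lower by 0.2 or more, where 12.1% of all expressed genes were higher and 8.27% lower. At 0.5 or more stood Smpdl3a, higher, and Smpdl3b, lower (1.13% and 0.591% of all expressed genes).

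Of 25 further lysosomal membrane proteins 19 were higher, and their median was 0.05. Laptm5, a lysosomal protein of blood cells, stood at 0.41, with probe sets from -0.09 to 0.51. Slc15a4, a transporter of peptides and histidine, stood at 0.39, Ctns, which exports cystine, at 0.34, and Laptm4b at -0.28. The sorting machinery had 9 of 17 genes higher, near the 49.7% of all expressed genes. Its median of 0.00083 turned negative under quantile normalization (-0.029) and loess (-0.018). Both receptors for the mannose 6-phosphate tag were lower on the brightest probe set, Igf2r at -0.27 and M6pr at -0.17, with 0.03 on the second probe set of M6pr. Cln6 stood at 0.15 and Sort1, a sorting receptor, at 0.13.

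The list of partners and assembly factors of the V-ATPase had 10 of 12 higher, with a median of 0.10. It includes Tcirg1 (0.14), Atp6ap1 (0.05), Atp6ap2 (0.06) and Rnasek (0.08), parts of V0 whose symbols do not start with Atp6v. They were named after their values were seen, and the V0 counts above leave them out. The largest values were those of Dmxl1 (0.21), Wdr7 (0.20), Dmxl2 (0.18) and Rogdi (0.15), all of the complex that joins V1 to V0. Regulators of lysosomal genes and nutrient sensing had 9 of 17 genes higher, also near the 49.7% of all expressed genes. Their median was 0.03 (-0.0022 with the mean of probe sets). Tfe3, a transcription factor of lysosomal genes, gave 460.0 and 356 (-0.36) on a single expressed probe set. Rheb (-0.16), Lamtor4 (-0.15) and Rptor (-0.15), all of mTORC1 signalling, followed. The related factors Tfeb (-0.06), Mitf (0.03) and Tfec (0.03), named after their values were seen, lay within the spread between probe sets.

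**Figure D4:**
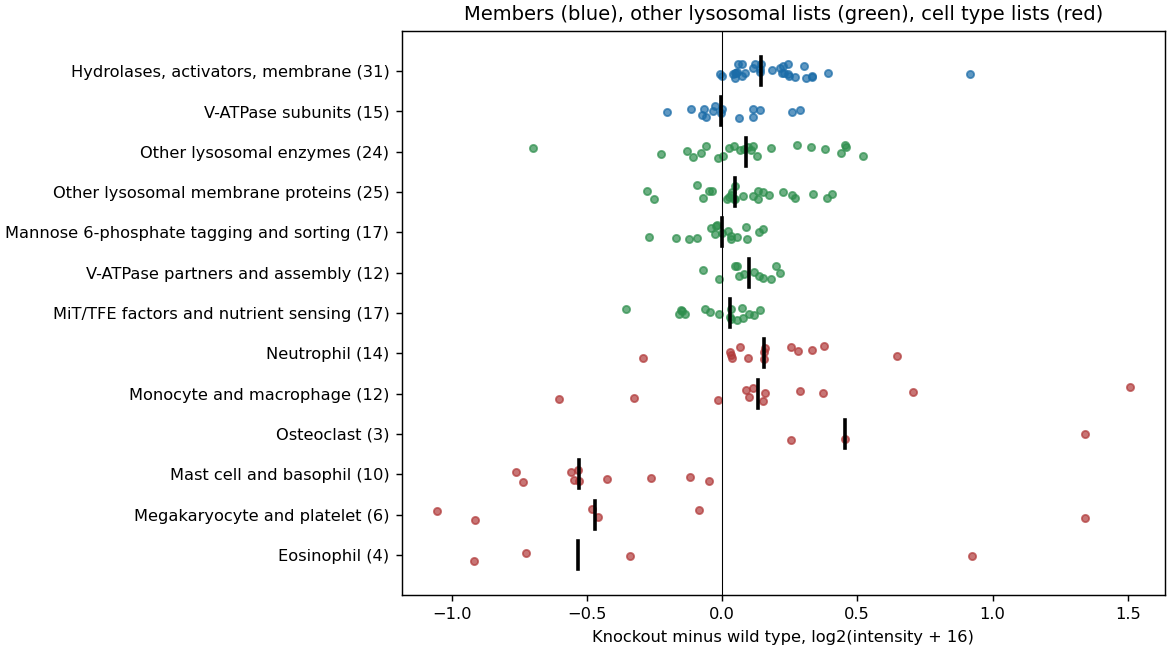
Difference, knockout minus wild type on log2(intensity + 16), of each expressed gene in the 2 member groups (blue), 5 other lysosomal lists (green) and 6 cell type lists (red), with the number of genes in brackets and the median as a black bar. The lysosomal genes have a median of 0.14, the neutrophil list 0.15, the monocyte and macrophage list 0.13 and the mast cell and basophil list -0.53.

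Markers of the cell types in the cultures also differed between the arrays. The counts of markers stand beside 49.7% of all expressed genes higher and 50.1% lower. All 14 measured neutrophil markers were expressed, and 13 were higher, with a median of 0.15. Their summed intensities were 177886 in wild type and 188285 in knockout, and sums below are given in the same order over all measured genes of a list. The largest differences were in Itgam (0.65), Cxcr2 (0.38), Csf3r (0.33) and Camp (-0.29), each on a single expressed probe set. As deposited, the median of the lysosomal genes, 0.14, lay between that of the neutrophil markers and that of the monocyte and macrophage markers. The order depended on the processing. With quantile normalization the lysosomal median (0.119) lay below both (0.127 and 0.121). At the 75th percentile cut it lay above both (0.184 beside 0.155 and 0.099). Of 17 measured monocyte and macrophage markers 12 were expressed, 9 of them higher, with a median of 0.13 and sums of 10239 and 11279. Apoe (1.51), Ly86 (0.71) and Gpnmb (0.37) were higher and Cx3cr1 (-0.60) was lower. C1qa, C1qc, Mertk, Mrc1 and Marco were below the expression cut on these arrays.

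Each of the 10 expressed markers of mast cells and basophils was lower (50.1% of all expressed genes), with a median of -0.53 and sums of 6741 and 4709. The largest differences were in Cma1 (-0.76), Cpa3 (-0.74), Fcer1a (-0.56), Mcpt8 (-0.55), Ms4a2 (-0.53) and Gata2 (-0.53). Of 6 megakaryocyte and platelet markers 5 were lower, with a median of -0.47 and sums of 1960.2 and 1258, led by Ppbp (-1.06) and Pf4 (-0.91), while Itgb3 was higher. Vwf (-0.48) and Itga2b (-0.46) were also lower. Among 4 eosinophil markers Siglecf was higher (0.92), whereas lower values were found for Prg3 (-0.92), Prg2 (-0.73) and Epx (-0.34), with sums of 1233 and 1006. The median of these 4 was -0.53. Under a cut at the 75th percentile 2 of them were left, Prg2 and Siglecf, of opposite sign (median 0.098).

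Osteoclasts, another cell type rich in lysosomal and V-ATPase genes, had few expressed markers on these arrays. Of 8 measured markers Itgb3 (1.34, with 0.37 on its other probe set), Acp5 (0.45) and Nfatc1 (0.25, with probe sets down to -0.04) were expressed. The sums were 474 and 687. The defining Ctsk and Calcr were below the expression cut, as was Atp6v0d2. The part of any cell type in the differences of the lysosomal genes was not tested.

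Spiked control RNAs gave lower signals in knockout than in wild type, 17 of 18 hybridization controls with a median of -0.11 and 25 of 27 poly-A controls with a median of -0.16. Centred on the hybridization controls, the median was 0.25 for the lysosomal genes, 0.10 for the V-ATPase and 0.11 for all expressed genes. This centring moves every gene by one constant, so the gap between these groups could not change. The sign of a small difference depended on the centring. For RNA integrity, the 3' probe set of beta-actin exceeded its 5' probe set by 0.33 in wild type and 0.25 in knockout (log2), and for Gapdh by 0.15 and 0.06.

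Promoters were searched because most of the lysosomal genes were higher together. TFEB and its relatives bind the CLEAR element, a palindrome around the core CACGTG found at many lysosomal genes. RefSeq promoters (build GRCm38.p6, 250 bases before to 50 after a start) were found for 28 of the 31 expressed lysosomal genes and 10 of the 15 V-ATPase subunits. The motifs searched, each identical on both strands and nested in each other, were the full CLEAR palindrome of 10 bases, its central TCACGTGA and the core CACGTG. The core CACGTG stood in a promoter of 8 lysosomal genes (28.6%) and 4 V-ATPase genes (40.0%). The share was 11.9% of expressed genes and 8.09% of all genes with a promoter. TCACGTGA stood in 2 lysosomal and 3 V-ATPase genes, beside 2.26% of expressed genes and 1.12% of all genes with a promoter. The full palindrome was in none of these members' windows, beside 0.857% of expressed genes and 0.370% of all genes with a promoter.

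Lamp1 held the densest matches, 4 cores in the 75 bases before its start (chr8:13159086-13159160, + strand), shown with the cores in capitals.
Lamp1: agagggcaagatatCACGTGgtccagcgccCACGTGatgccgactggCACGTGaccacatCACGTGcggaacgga

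The 30-base stretches around TCACGTGA are shown as the longest matches among the members, with the motif in capitals and each written on the strand of its gene. They lie at chr8:3500462-3500491 (Mcoln1, + strand), chrX:134601182-134601211 and chrX:134601215-134601244 (Gla, - strand), chr8:105566050-105566079 (Atp6v0d1, - strand), chr16:44139373-44139402 (Atp6v1a, - strand) and chr17:26676387-26676416 (Atp6v0e, + strand).
Mcoln1: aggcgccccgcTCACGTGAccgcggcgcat
Gla, nearer the start: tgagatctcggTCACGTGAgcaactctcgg
Gla, farther from the start: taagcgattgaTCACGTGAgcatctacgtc
Atp6v0d1: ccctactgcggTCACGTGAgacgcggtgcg
Atp6v1a: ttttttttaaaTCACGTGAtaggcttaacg
Atp6v0e: tagcgcgccgaTCACGTGAgcctctgttga

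The genes with these letters had differences of both signs. Mcoln1 stood at 0.24, Gla at 0.09, Atp6v0d1 at 0.26, Atp6v1a at -0.03 and Atp6v0e at -0.11. The 8 lysosomal genes with CACGTG were Glb1, Gla, Naglu, Sgsh, Arsa, Lgmn, Lamp1 and Mcoln1, with a median of 0.08, and the 20 without it had a median of 0.22. For the V-ATPase the medians were -0.055 with the core and -0.0024 without. A match is a description of the letters, and binding was not measured.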

How the data were processed

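For each of 2 arrays, 1 per genotype, the authors deposited linear intensities of probe sets; their background correction, summarization and normalization are not stated in the labels. Samples were grouped by the genotype in the labels. Among 45101 probe sets were 64 controls, and 34945 had 1 gene in the platform annotation, with symbols updated by Entrez identifier (RefSeq, GRCm38.p6). Other probe sets were left out. Values were used without centring, as log2(intensity + 16), and each gene was read from the probe set brightest on average. Differences of 0.2 and 0.5 were counted. No test was run, since each genotype had 1 array. The members and lists were chosen with earlier results of these data known. All members could be named, and of every other list the 4 expressed genes with the largest differences and any at 0.5 or more. Tfeb, Mitf, Tfec, Tcirg1, Atp6ap1, Atp6ap2, Rnasek, Itga2b, Ctsk, Calcr, C1qa, C1qc, Mertk, Mrc1 and Marco were named afterwards. The procedure was tested on simulated data. Alternatives were pseudocounts of 1 and 64, 4 other scalings, 2 expression filters, the mean of probe sets, and leaving out suffixes that mark shared sequence. Python 3.11.15, pandas 2.3.3, numpy 2.4.6 and statsmodels 0.14.6 (loess) were used.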

Additional observations from a re-analysis of the deposited data

How the results depend on the processing

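The median of the lysosomal genes stayed positive under all 10 alternatives, between 0.12 (quantile normalization) and 0.25 (centring on hybridization controls), and that of the V-ATPase lay between -0.014 (no expression cut) and 0.10 (the same centring). Centring on hybridization controls put 95.7% of the 46 members higher, against 76.1% as deposited, because it adds 0.11 to every difference; 78.0% of all expressed genes were then higher. With the mean of all probe sets 0 members reached 0.5, since Tmem106b stood at 0.45. Single genes moved by more than the spread between probe sets in 5 of 447 values, those of Lgmn, Ids and Tmem106b, and 2 of Atp6v1e1 (-0.027 with the mean of probe sets and -0.05 without shared suffix). Many of the 447 could not move so far. The expression filters leave each difference unchanged, and the constant centrings shift it by less than that spread. The spread, 0.144, is also as large as the median of the lysosomal genes, 0.14. Under the 8 alternatives that do not add one constant to every gene, the sign held for 29 of 31 lysosomal genes, all but Gla and Sgsh. It held for 12 of 15 V-ATPase subunits, all but Atp6v0a2, Atp6v0b and Atp6v1d. Among these alternatives the pseudocounts and the expression filters cannot change a sign. For a gene with 1 probe set, the mean of probe sets and leaving out shared suffixes could not either. Dim genes such as Lgmn and Atp6v1g2 lie near background, where the pseudocount sets the size. No paired analysis was possible because each genotype had 1 array.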
